A study of Homo sapiens with 12 samples.

Results

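The 9 genes described here encode the core of antigen presentation by major histocompatibility complex (MHC) class I: the heavy chains HLA-B, HLA-C and HLA-E, the light chain B2M, the peptide transporter subunits TAP1 and TAP2, the loading protein tapasin (TAPBP), and the immunoproteasome subunits PSMB8 and PSMB9. They were taken by gene symbol from the authors' 2 tables of expression values and all 9 were listed in both, among 13554 genes in the knockdown table and 13583 in the overexpression table. The tables come from poly(A) RNA sequencing of 12 libraries of SW480, a cell line derived from a human colon adenocarcinoma. Cells overexpressing GPD1L (OE) were set against cells with the vector (Vector), and cells in which a short hairpin RNA targets GPD1L (shGPD1L) against cells with a control hairpin (shNC). GPD1L encodes a relative of glycerol-3-phosphate dehydrogenase, an enzyme of glycerol lipid and redox metabolism. Each of these 4 groups had 3 libraries, no other treatment is labelled for any of them, and the number of clones or hairpins behind each line is not given in the labels. A difference between lines therefore cannot be told apart from an effect of the GPD1L level. Separate cultures are not stated for the libraries of a group, and the p-values therefore reflect variation among these samples that may be technical.

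In nucleated cells the proteasome cuts cytosolic proteins into peptides, TAP carries the peptides into the endoplasmic reticulum, and tapasin holds empty heavy chains beside TAP until a peptide is bound. The complex of heavy chain, B2M and peptide then moves to the surface, where cytotoxic T cells read it. Interferon raises many of these genes through NLRC5 and IRF1, and replaces constitutive catalytic subunits of the proteasome with PSMB8, PSMB9 and PSMB10. HLA-E, a non-classical chain, presents peptides cut from the leader sequences of other class I chains and is read by receptors of natural killer cells. Tumour cells, colon carcinomas among them, are known to lower or lose parts of this pathway.

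Promoter sequences show what the genes share before any value is considered. RefSeq's table of promoters (GRCh38.p14, from 250 bases before to 50 bases after a start site) held 10 start sites for 8 of the 9 genes; HLA-E had no entry. A set of 5 short motifs were searched on both strands: GAAA repeated after a gap of any 2 bases, the core of the interferon-stimulated response element; TTCNNNGAA, the gamma-activated site; the NF-kappaB consensus; CCAAT; and TGACG, part of the cyclic AMP response element. The stretches below carry the NF-kappaB and TGACG matches and most CCAAT matches of the chains, 1 further CCAAT match of HLA-C lying upstream of its stretch. The stretches also carry the matches of the transporter and loading genes to the interferon-stimulated core. They run 5′ to 3′ on the gene's own strand, with matches that lie wholly inside a stretch in capitals.
HLA-B, chr6:31357218-31357364, minus strand: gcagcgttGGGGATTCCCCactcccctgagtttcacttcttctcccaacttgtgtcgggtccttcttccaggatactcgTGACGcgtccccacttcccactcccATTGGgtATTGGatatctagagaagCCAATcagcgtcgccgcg
HLA-C, chr6:31272131-31272277, minus strand: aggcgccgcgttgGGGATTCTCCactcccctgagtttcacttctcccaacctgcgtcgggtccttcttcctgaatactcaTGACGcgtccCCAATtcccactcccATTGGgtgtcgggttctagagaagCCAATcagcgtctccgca
B2M, chr15:44711337-44711486, plus strand: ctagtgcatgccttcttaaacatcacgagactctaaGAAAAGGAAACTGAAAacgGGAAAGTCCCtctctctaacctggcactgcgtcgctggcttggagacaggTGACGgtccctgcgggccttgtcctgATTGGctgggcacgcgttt
TAP1, chr6:32853813-32853842, minus strand: ccgcTTTCGATTTCGCTTTCccctaaatgg
TAP2, chr6:32838772-32838801, minus strand: aagcGAAAGCGAAAgctgcccgagccctga
TAPBP, chr6:33314079-33314107, minus strand: cctttggagGAAAGTGAAAGTGAAAggag
HLA-B and HLA-C carried the same arrangement, an NF-kappaB match followed by TGACG and by CCAAT in both orientations. The B2M stretch held 2 overlapping matches to the interferon-stimulated core, then NF-kappaB, TGACG and CCAAT matches. The interferon-stimulated core was found at 5 of the 8 genes (B2M, TAP1, TAP2, TAPBP and, at the downstream of its 2 start sites, PSMB8), against 3.57% of the 35116 promoters searched. An NF-kappaB match was found at HLA-B, HLA-C, B2M, TAP1 and TAPBP, against 11.3% of promoters. CCAAT and TGACG were common, at 34.6% and 24.6% of promoters, and were the only matches at PSMB9. The gamma-activated site, at 7.66% of promoters, was matched at TAP1 and PSMB8. The TAP1 match lies at a start site other than that of the printed stretch, and the PSMB8 match at its downstream start site. By RefSeq start sites, TAP1 and PSMB9 lie head to head, 488 bases apart. The printed TAP1 stretch, with its matches to the interferon-stimulated core, lies between these start sites. It is outside the 250 bases searched before that of PSMB9. In GENCODE 29 PSMB9 instead spans TAP1 on the opposite strand, with 0 exon bases shared. In GENCODE 29 the printed TAP1 and TAPBP stretches overlap exons of their own genes. The TAP2 stretch overlaps exons of TAP2 and AL669918.1, and the HLA-B stretch those of AL671883.2. These 4 stretches are therefore not wholly outside annotated transcripts. All matches are letters in a window and say nothing of binding in these cells. Only exact matches were sought, so a gene without a match, HLA-B and HLA-C included, may still carry an element that departs from these letters.

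Some facts of the whole series bear on the values. FPKM counts the fragments of a gene relative to its transcript length and to all mapped fragments of the library, and the depth behind it is unknown. Summed over listed genes, the libraries held 421714 to 444794 FPKM. The sums were 421714 to 423368 FPKM in OE, all below the 437051 to 438967 FPKM of Vector. In the knockdown they overlapped, at 435140 to 443838 FPKM in shGPD1L and 440039 to 444794 FPKM in shNC. GPD1L itself stood at 22.3, 22.8 and 22.1 FPKM in the OE libraries, against 10.7, 10.2 and 11.1 FPKM in the Vector libraries. It was at 1.55, 1.26 and 2.23 FPKM in the shGPD1L libraries, against 8.68, 8.01 and 9.10 FPKM in the shNC libraries, as labelled. One library of the knockdown, shGPD1L replicate 3, stood apart from the other 5 on the first principal component, at 29.1 against -12.1 to 0.32, and for the knockdown the counts over the class I genes and over each list are given with and without it. Of 8 markers of colon epithelium, 8 had values in the overexpression and 7 in the knockdown. Of 12 leukocyte markers CD14 and CD68 had values, of 7 fibroblast markers COL1A1 and PDGFRB, and of 5 endothelial markers 0. The others were looked up, had no values here and so could not be analysed. Below, a gene is called when the limma test with Benjamini-Hochberg adjustment over all genes of its table gave an adjusted p under 0.05, and changes are differences of log2(FPKM + 1), with SE.

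With GPD1L overexpressed, 5 of the 9 class I genes fell and none rose. HLA-B, HLA-C, TAPBP, PSMB8 and PSMB9 were the ones that fell, and HLA-E, B2M, TAP1 and TAP2 were not called. Among all 12208 genes tested, lower calls took 10.3%, higher calls 12.2% and both together 22.4%. Over all genes 1484 calls were higher and 1256 lower; the split was 2349 and 994 with equal library totals and 1174 and 1520 with median-of-ratios scaling, with 5 and 7 members called lower. The median change was -0.23 over the 9 members and 0.02 over all genes. The groups did not overlap at 7 of 9 members, all lower in OE, where 17.6% of all genes were so separated downward and 24.2% upward. An unadjusted p under 0.05 was found at 7 of 9 members and at 37.9% of all genes. Relative to the Vector mean, 8 of 9 members were lower in OE replicate 1, 9 of 9 in replicate 2 and 9 of 9 in replicate 3. The share of all genes lower in each of these libraries was not computed. In bulk RNA, fewer cells expressing a gene and less RNA per cell cannot be told apart.

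With GPD1L lowered by the hairpin, 0 of 9 members were called, and 0 had an unadjusted limma p under 0.05. The background was low too, since 0.592% of the 12156 genes tested were called, 0.115% higher and 0.477% lower (14 and 58 genes, or 8 and 17 with quantile normalization), and 16.3% had an unadjusted p under 0.05. The median change was 0.07 over the members and -0.04 over all genes, and 7 of 9 members were higher on average. HLA-B alone had groups that did not overlap, higher in shGPD1L, which was so for 9.54% of all genes, with 15.1% separated downward. Without shGPD1L replicate 3 the members' count was again 0 of 9, with 0 at an unadjusted p under 0.05 against 23.9% of all genes, while higher calls took 1.8% and lower calls 3.2% of all genes. All 9 changes were then above 0, from 0.02 for HLA-E to 0.24 for PSMB9, with a median of 0.08 over the members and -0.01 over all genes.

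**Figure D1:**
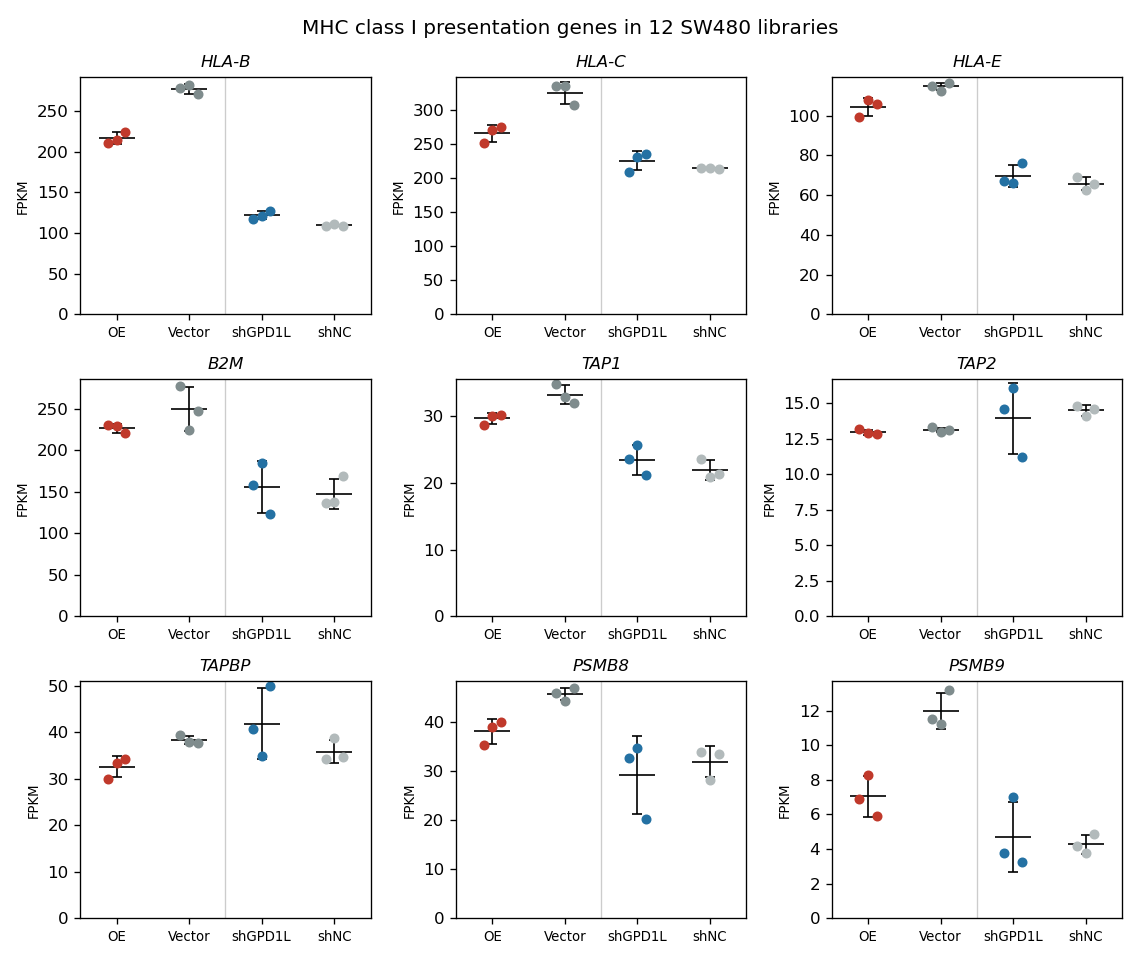
Expression of the 9 class I genes (FPKM, each panel with its own linear axis from 0) in the 3 libraries of each group; points are libraries and horizontal bars are group means with SD. HLA-B, HLA-C, HLA-E, TAP1, TAPBP, PSMB8 and PSMB9 are lower in all OE libraries than in all Vector libraries, and shGPD1L and shNC overlap in every panel but that of HLA-B.

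The heavy chains come first. HLA-B (ENSG00000234745, chromosome 6, 31269491 to 31357188, minus strand, GRCh38), a classical chain read by cytotoxic T cells, was listed at 211, 215 and 225 FPKM in the OE libraries, against 278, 283 and 271 FPKM in the Vector libraries. Every OE library lay below every Vector library, and the change was -0.35 (SE 0.04, adjusted p = 0.00126), the mean being 0.782 times that of Vector. In the knockdown HLA-B was at 117, 121 and 128 FPKM in the shGPD1L libraries, against 109, 111 and 109 FPKM in the shNC libraries. Every shGPD1L library lay above every shNC library, but the change of 0.15 (SE 0.07, adjusted p = 0.354) was not called, also without shGPD1L replicate 3 (0.12, adjusted p = 0.241). HLA-B as annotated in GENCODE 29 runs into HLA-C on the same strand and shares 35 exon bases with it. The coding sequences of the class I chains are alike, so reads of one may have been counted for another.

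HLA-C (ENSG00000204525, chromosome 6, 31268749 to 31272130, minus strand), which also binds the killer-cell receptors of natural killer cells, was at 252, 271 and 276 FPKM in the OE libraries. In the Vector libraries it was at 335, 335 and 308 FPKM, all above the highest OE library. Its change was -0.29 (SE 0.05, adjusted p = 0.00696), or 0.816 times the Vector mean. In the knockdown it was at 209.7, 231 and 236 FPKM in shGPD1L, against 216, 215 and 214 FPKM in shNC. Those groups overlapped, the shNC libraries differing little among themselves, and the change was 0.07 (adjusted p = 0.710).

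HLA-E (ENSG00000204592, chromosome 6, 30489467 to 30494205, plus strand) was at 99.3, 108 and 106 FPKM in the OE libraries, against 115, 113 and 117 FPKM in the Vector libraries. The groups did not overlap, yet the change of -0.14 missed the threshold (SE 0.04, adjusted p = 0.0602). In shGPD1L it was at 67.1, 66.1 and 75.9 FPKM, against 69.3, 62.6 and 65.6 FPKM in shNC, a change of 0.08 (adjusted p = 0.686). Replicate 3 of shGPD1L was the highest of the 6, and without it the change was 0.02.

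B2M (ENSG00000166710, chromosome 15, 44711487 to 44718877, plus strand), the light chain without which most class I complexes do not reach the surface, is the only one of the 9 genes outside chromosome 6. It was at 230.4, 229 and 220.3 FPKM in the OE libraries, against 278, 225 and 248 FPKM in the Vector libraries. OE values were close together and Vector values were spread, so the groups overlapped and the change of -0.14 (SE 0.07, adjusted p = 0.192) was not called. The shGPD1L libraries held 158, 185 and 123 FPKM, against 136, 138 and 168 FPKM in the shNC libraries. These 2 groups overlapped fully, with shGPD1L replicate 3 the lowest of the 6, and the change was 0.06 (adjusted p = 0.883), or 0.22 without that library (adjusted p = 0.278).

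The peptide transporter is built from TAP1 and TAP2. TAP1 (ENSG00000168394, chromosome 6, 32845209 to 32853978, minus strand) was at 28.7, 30.0 and 30.2 FPKM in OE, against 34.8, 32.8 and 31.9 FPKM in Vector. The groups did not overlap, and the change of -0.16 (SE 0.05, adjusted p = 0.0550) missed the threshold. In the knockdown TAP1 was at 23.5, 25.6 and 21.2 FPKM in shGPD1L, against 23.5, 20.8 and 21.3 FPKM in shNC, a change of 0.09 (adjusted p = 0.672), or 0.16 without shGPD1L replicate 3 (adjusted p = 0.258). TAP2 (ENSG00000204267, chromosome 6, 32821833 to 32838780, minus strand) varied little in the overexpression. It was at 13.1, 12.9 and 12.8 FPKM in OE and at 13.3, 13.0 and 13.1 FPKM in Vector, a change of -0.02 (SE 0.05, adjusted p = 0.818) that was 0.03 with equal library totals. In the knockdown it was at 14.6, 16.0 and 11.2 FPKM in shGPD1L and at 14.8, 14.1 and 14.6 FPKM in shNC. There the change was -0.07 (adjusted p = 0.835), and it was 0.07 without shGPD1L replicate 3, the lowest library. TAP2 shares 2064 of its 6390 exon bases with AL669918.1 on the same strand, and reads there cannot be assigned to one of them.

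Tapasin, encoded by TAPBP (ENSG00000231925, chromosome 6, 33299694 to 33314387, minus strand), bridges TAP and the empty heavy chain and favours tightly bound peptides. It was at 30.0, 33.4 and 34.2 FPKM in the OE libraries, against 39.3, 37.9 and 37.6 FPKM in the Vector libraries. The change was -0.23 (SE 0.06, adjusted p = 0.0253), or 0.851 times the Vector mean, with no overlap. This call was lost without OE replicate 1, Vector replicate 1, Vector replicate 2 or Vector replicate 3, at adjusted p from 0.0508 to 0.0804. In the knockdown TAPBP was at 40.6, 35.0 and 49.9 FPKM in shGPD1L and at 34.1, 38.7 and 34.6 FPKM in shNC. The highest value was that of shGPD1L replicate 3, and the change of 0.21 (adjusted p = 0.474) was 0.07 without it.

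PSMB8 and PSMB9 encode catalytic subunits that take the places of PSMB5 and PSMB6 in the immunoproteasome. PSMB8 (ENSG00000204264, chromosome 6, 32840717 to 32844703, minus strand) was at 35.3, 39.1 and 40.0 FPKM in OE, against 45.8, 44.3 and 46.9 FPKM in Vector. All OE libraries were lower, and the change was -0.26 (SE 0.06, adjusted p = 0.0153). In the knockdown PSMB8 was at 32.7, 34.7 and 20.2 FPKM in shGPD1L, against 33.9, 28.3 and 33.5 FPKM in shNC. Here shGPD1L replicate 3 was the lowest library, and the change of -0.16 (adjusted p = 0.729) became 0.08 without it. PSMB9 (ENSG00000240065, chromosome 6, 32844136 to 32859585, plus strand) had the largest change of the 9 genes in the overexpression and the lowest level in every group. It was at 6.91, 8.29 and 5.91 FPKM in OE, against 11.5, 11.2 and 13.2 FPKM in Vector, a change of -0.70 (SE 0.11, adjusted p = 0.00430) or 0.588 times the Vector mean. Each OE library was below each Vector library. In shGPD1L it was at 3.80, 7.00 and 3.26 FPKM and in shNC at 4.17, 3.79 and 4.85 FPKM. Replicate 2 of shGPD1L was the highest of these 6, and the change was 0.06 (adjusted p = 0.926). PSMB8 and PSMB9 share 139 exon bases on opposite strands. The RNA PSMB8-AS1 shares 618 exon bases with PSMB8 and 456 with TAP1 on the opposite strand, and 174 with PSMB9 on the same strand. Strandedness is not stated, so reads on opposite strands may not have been separated, and those shared by PSMB9 and PSMB8-AS1 cannot be assigned even with strand.

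**Figure D2:**
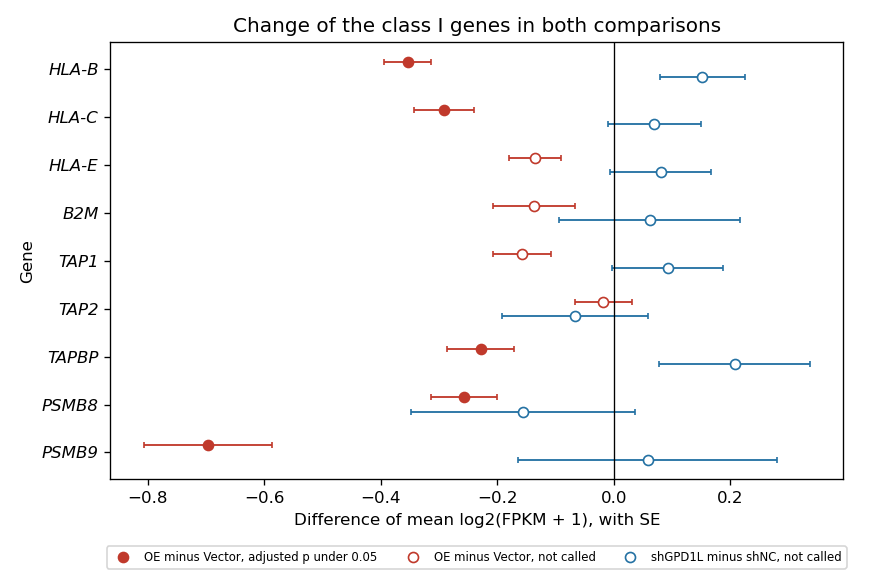
Change of each class I gene as the difference of group means of log2(FPKM + 1), with SE from limma (3 libraries per group), OE minus Vector in red and shGPD1L minus shNC in blue; filled points had an adjusted p under 0.05. The 5 filled points all lie left of 0, from -0.70 for PSMB9 to -0.23 for TAPBP, and 7 of the 9 blue points lie right of 0 with none called.

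Whether the members responded differently to the 2 manipulations was tested directly, as the change in OE less the change in shGPD1L over all 12 libraries. HLA-B differed by -0.51 (SE 0.08, adjusted p = 0.00235) and HLA-C by -0.36 (SE 0.09, adjusted p = 0.0241). These were the 2 of 9 members called, both lower, where 4.97% of the 11385 genes tested were called lower, 9.09% higher and 14.1% in all (1035 higher and 566 lower, or 637 and 790 with median-of-ratios scaling). An unadjusted p under 0.05 was found at 6 of 9 members and 29.6% of all genes. PSMB9 had the largest difference, -0.76 (SE 0.27), and TAPBP one of -0.44 (SE 0.15), but neither was called (adjusted p = 0.0858 and 0.0742). For HLA-E, TAP1, B2M and PSMB8 the difference was between -0.25 and -0.10, and for TAP2 it was 0.05, none called. Without shGPD1L replicate 3 a total of 5 of 9 members were called, all lower, where 9.06% of all genes were then called lower, and between 1 and 3 when any other single library was left out; it was 1 without OE replicate 1, Vector replicate 1, Vector replicate 2 or shNC replicate 3. HLA-B was called in all 22 alternatives tried and HLA-C in 16 of 22.

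Levels across the 4 groups followed one order for 6 of the genes, with shNC lowest, then shGPD1L, then OE below Vector; each table may have had its own normalization, so an order across them is only a description. HLA-B kept this order with no overlap between neighbours, at 217 ± 7.43 FPKM in OE and 277 ± 5.85 FPKM in Vector, and at 122 ± 5.10 FPKM in shGPD1L and 109.7 ± 0.803 FPKM in shNC (SD, n = 3 each). HLA-C, HLA-E and TAP1 kept it with shGPD1L and shNC overlapping. B2M kept it with overlap also between OE and Vector. PSMB9 kept it too, at 7.04 ± 1.20 FPKM in OE and 12.0 ± 1.05 FPKM in Vector, and at 4.69 ± 2.02 FPKM in shGPD1L and 4.27 ± 0.538 FPKM in shNC, with OE overlapping shGPD1L and shGPD1L overlapping shNC. PSMB8 differed in that shGPD1L lay below shNC, with overlap. TAP2 and TAPBP had other orders, in which all neighbours overlapped. Among listed genes HLA-C ranked 155 by mean FPKM in the overexpression table and 198 in the knockdown table, B2M 195 and 307, HLA-B 187 and 438, and PSMB9 6759 and 9242.

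The 2 control lines differed in level at most of these genes. Vector stood at 2.80 times the shNC mean FPKM for PSMB9 and at 2.53 times for HLA-B. The median was 0.991 over the 11439 genes listed in both tables that averaged 1 FPKM or more over the 2 control groups. On the log2(FPKM + 1) scale 0.393% of those genes showed a larger increase than HLA-B and 0.455% a larger increase than PSMB9. HLA-E, B2M, HLA-C, TAP1 and PSMB8 stood at between 1.43 and 1.74 times shNC, TAPBP at 1.07 times and TAP2 at 0.906 times. OE means, lower than those of Vector, lay above shNC means for HLA-B, HLA-C, HLA-E, B2M, TAP1, PSMB8 and PSMB9.

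Ratios of 2 genes within a library do not depend on its scaling, and 6 were compared in each table. An exact permutation test of 3 against 3 libraries cannot give a two-sided p under 0.1, so none could pass 0.05 and the p-values, adjusted over 12 tests, are given for completeness. PSMB9 over PSMB6 was 0.112 ± 0.0184 in OE and 0.220 ± 0.0292 in Vector (SD, n = 3 each), a log2 difference of -0.98 (SE 0.18), with no overlap (exact permutation p = 0.1, adjusted 0.24). PSMB10 over PSMB7 was 0.0587 ± 0.000619 in OE and 0.0941 ± 0.00394 in Vector, a log2 difference of -0.68 with no overlap (exact permutation p = 0.1, adjusted 0.24). PSMB8 over PSMB5 was 0.486 ± 0.0311 in OE and 0.532 ± 0.0571 in Vector and overlapped (exact permutation p = 0.3, adjusted 0.45). The groups thus overlapped at 1 of the 3 proteasome ratios; whether the ratios differ from each other was not tested. TAP1 over TAP2 was 2.29 ± 0.0952 in OE and 2.53 ± 0.0910 in Vector, without overlap (exact permutation p = 0.1, adjusted 0.24). In the knockdown TAP1 over TAP2 was 1.70 ± 0.165 in shGPD1L and 1.51 ± 0.0710 in shNC, without overlap (exact permutation p = 0.1, adjusted 0.24). HLA-B over HLA-C was 0.815 ± 0.0225 in OE and 0.851 ± 0.0268 in Vector, with overlap (exact permutation p = 0.2, adjusted 0.343). It was 0.541 ± 0.0186 in shGPD1L and 0.510 ± 0.00439 in shNC, without overlap (exact permutation p = 0.1, adjusted 0.24). HLA-B over B2M overlapped in both tables, as did the 3 proteasome ratios in the knockdown.

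**Figure D3:**
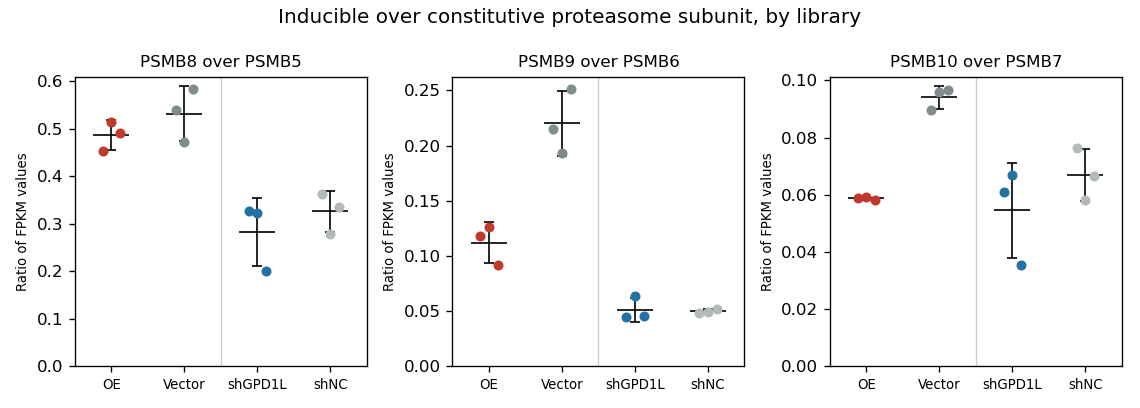
Ratio of FPKM values within a library (linear axes from 0) for PSMB8 over PSMB5, PSMB9 over PSMB6 and PSMB10 over PSMB7; points are the 3 libraries of each group, and bars are means with SD. OE points of PSMB9 over PSMB6 and of PSMB10 over PSMB7 lie below all Vector points, while PSMB8 over PSMB5 overlaps between OE and Vector.

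The genes around the 9 were followed as lists. Of all genes tested in OE, 10.3% fell, 12.2% rose and 37.9% had an unadjusted p under 0.05. In the knockdown these shares were 0.477%, 0.115% and 16.3%. With shGPD1L replicate 3 left out, 3.2% fell and 1.8% rose in the knockdown. For the difference of the 2 effects, 4.97% of all genes were called lower and 9.09% higher. Of 14 other class I and class I-like chains tested, 3 fell in OE and 0 rose. HLA-F, a non-classical chain, was at 28.4, 30.6 and 30.8 FPKM in OE against 41.5, 36.9 and 36.3 FPKM in Vector, a change of -0.34 (SE 0.06, adjusted p = 0.00795). AZGP1, a secreted class I-like protein that binds lipid, fell by 0.88 (SE 0.08, adjusted p = 0.000428). In the knockdown 0 of 14 were called, with 5 at an unadjusted p under 0.05. Without shGPD1L replicate 3 the count was 3, with MR1 (-0.58, adjusted p = 0.0430) and RAET1L (-0.51, adjusted p = 0.0285) lower and ULBP3 (0.46, adjusted p = 0.0423) higher. As differences of the 2 effects, 4 were called lower and 1 higher. For class II presentation a single gene, HLA-DMA, passed the filter, and it was not called in either comparison, nor in the knockdown without shGPD1L replicate 3.

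Of 10 partners in peptide loading, 3 fell in OE and 0 rose, where 10.3% of all genes fell and 12.2% rose. They were PDIA3, which is linked to tapasin in the loading complex (-0.20, SE 0.04, adjusted p = 0.0117), CALR, the chaperone calreticulin that holds the heavy chain there (-0.18, SE 0.04, adjusted p = 0.0117), and PRKCSH, a subunit of glucosidase II (-0.18, SE 0.04, adjusted p = 0.0231). With quantile normalization PDIA3 and CALR were not called, at adjusted p = 0.0667 and 0.0849, and over the alternatives 2 to 4 partners were called. ERAP1, which trims peptides in the endoplasmic reticulum, was at -0.20 and not called (adjusted p = 0.0525). In the knockdown 1 of 10 rose, GANAB, the catalytic subunit of glucosidase II (0.44, SE 0.07, adjusted p = 0.0472). CALR was at 748, 738 and 773 FPKM in shGPD1L and 564, 573 and 549 FPKM in shNC, a change of 0.42 that was not called (adjusted p = 0.0685) with all libraries. Without shGPD1L replicate 3 the count was 3 of 10 higher, namely CALR (0.40, adjusted p = 0.0194), GANAB (0.45, adjusted p = 0.0113) and PRKCSH (0.40, adjusted p = 0.0188). GANAB was lost, with 0 of 10 called, without any 1 of shNC replicates 1, 2 and 3 and shGPD1L replicates 1 and 2, where all genes called numbered 0 to 8. The count of partners called in the knockdown also changed with quantile normalization, trend-free or robust eBayes and a replicate block. It ran from 0 to 3 over all alternatives. As differences of the 2 effects, 4 of 10 were called lower, with CALR at -0.60 (adjusted p = 0.000910) and PDIA3 at -0.32 (adjusted p = 0.0212). The PDIA3 difference was called in 15 of 22 alternatives and lost without OE replicate 2, Vector replicate 1, Vector replicate 2, shNC replicate 1 or shNC replicate 3. It was also lost under quantile normalization (adjusted p = 0.0863) and with a replicate block (adjusted p = 0.08465).

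Proteasome partners moved both ways in OE, with 2 of 9 lower and 2 of 9 higher, against 10.3% and 12.2% of all genes. PSMB10, the remaining catalytic subunit of the immunoproteasome, was at 7.63, 7.41 and 7.37 FPKM in OE against 9.81, 10.4 and 11.1 FPKM in Vector, a change of -0.43 (SE 0.06, adjusted p = 0.00323). PSME1, a subunit of the interferon-inducible activator PA28, fell by 0.32 (SE 0.05, adjusted p = 0.00585). The constitutive subunits PSMB7 (0.20, SE 0.04, adjusted p = 0.0127) and PSMB6 (0.20, SE 0.06, adjusted p = 0.0477) rose, although PSMB6 was not called in 8 of 16 alternatives and PSMB7 was at adjusted p = 0.0501 without Vector replicate 2. PSMB5 was at -0.14 and not called (adjusted p = 0.146). In the knockdown 0 of 9 were called, with 1 at an unadjusted p under 0.05, and again 0 without shGPD1L replicate 3. Of 6 cytosolic peptidases 0 were called in OE, with 1 at an unadjusted p under 0.05. THOP1, which destroys peptides in the cytosol, fell in the knockdown by 0.63 (SE 0.10, adjusted p = 0.0472), the 1 of 6 called. That call was lost without any 1 of the 5 libraries other than shGPD1L replicate 3. GPD1L itself was not called in the knockdown without shNC replicate 1, 2 or 3 (limma adjusted p = 0.0683, 0.0527 and 0.0839).

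Among 14 transcription factors with known roles at class I promoters, 1 fell and 1 rose in OE. Of all genes, 10.3% fell and 12.2% rose, 22.4% together, so this count does not stand above the background. IRF1 was at 6.20, 6.09 and 5.86 FPKM in OE against 7.90, 8.05 and 7.87 FPKM in Vector, a change of -0.34 (SE 0.06, adjusted p = 0.00570). RELA, an NF-kappaB subunit, rose by 0.31 on the log2 scale (SE 0.06, adjusted p = 0.00861). NLRC5, the class I transactivator, was at 4.86 ± 0.462 FPKM in OE and 5.47 ± 0.537 FPKM in Vector (SD, n = 3 each), a change of -0.14 (adjusted p = 0.279). In the knockdown 0 of 14 were called, with 1 at an unadjusted p under 0.05; NLRC5 was at 0.11 (adjusted p = 0.700) and IRF1 at 0.02 (adjusted p = 0.940). Without shGPD1L replicate 3 the count was again 0, with NLRC5 at 0.19 (adjusted p = 0.328) and IRF1 at 0.09 (adjusted p = 0.631).

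Of 16 genes of interferon and JAK-STAT signalling, 3 rose in OE and 0 fell, where 12.2% of all genes rose and 10.3% fell. They were the phosphatase gene PTPN2 (0.37, SE 0.10, adjusted p = 0.0373) and the kinase genes JAK1 (0.22, SE 0.05, adjusted p = 0.0228) and TYK2 (0.16, SE 0.05, adjusted p = 0.0425). This count was between 0 and 2 when any single library was left out, 2 without OE replicate 1 and 0 or 1 without any other. Of 9 genes of class I surface turnover and silencing, WWP2 (0.28, adjusted p = 0.0249) and EZH2 (0.20, adjusted p = 0.0279) rose in OE and 0 fell, and 0 or 1 were called when any single library was left out. In the knockdown 0 of 16 and 0 of 9 genes of these lists were called, with 4 and 3 at an unadjusted p under 0.05. Without shGPD1L replicate 3, 1 gene of each list was called, both higher, and that of the turnover list was SYVN1, a ubiquitin ligase of the endoplasmic reticulum (0.34, adjusted p = 0.0368).

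Interferon-stimulated genes other than the 9 fell in OE at 18 of 28 tested, and 0 rose, where 10.3% of all genes fell and 12.2% rose. The median change of the list was -0.32. The 3 with the largest change were BST2, which tethers virions at the surface (-0.94, SE 0.07, adjusted p = 0.000242), IFITM1, which restricts virus entry (-0.87, SE 0.06, adjusted p = 0.000179), and IFI6 (-0.52, SE 0.06, adjusted p = 0.00163). Leaving out any single library gave 15 to 17 lower calls. In the knockdown 2 of 26 fell and 0 rose, with a median of -0.21. They were CXCL10, a chemokine that draws T cells (-0.74, SE 0.10, adjusted p = 0.0337), and IFI35 (-0.59, SE 0.08, adjusted p = 0.0337). That count was 4 without shGPD1L replicate 3 and 0 without any 1 of the other 5 libraries. It also changed with quantile normalization and with a replicate block. Without shNC replicate 1, 2 or 3 GPD1L itself was not called in the knockdown. The medians of the class I genes and of this list were -0.23 and -0.32 in OE, and 0.07 and -0.21 in shGPD1L.

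**Figure D4:**
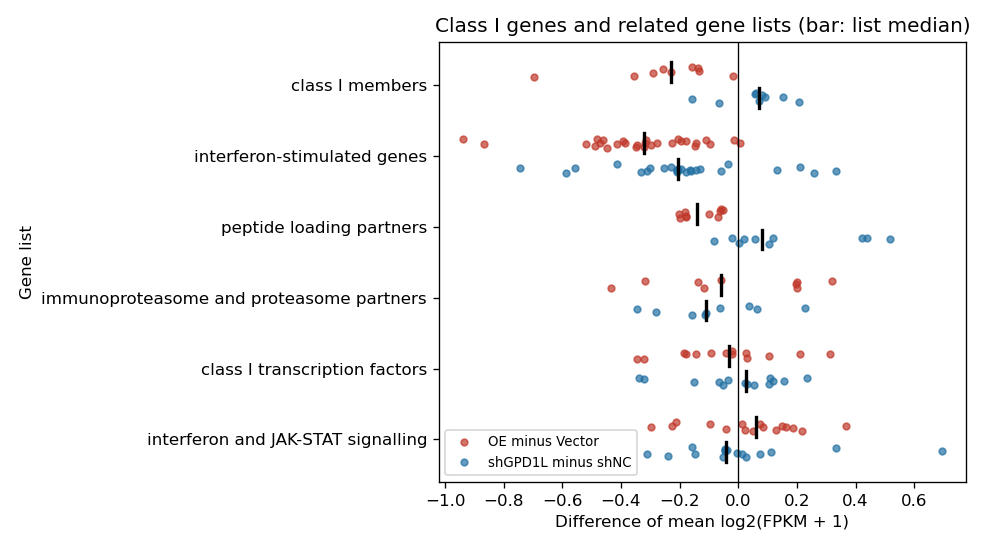
Change of every tested gene of 6 lists (difference of mean log2(FPKM + 1)), with OE minus Vector in red and shGPD1L minus shNC in blue and short lines at the list medians. Class I genes and interferon-stimulated genes lie mostly left of 0 in OE, with medians of -0.23 and -0.32, and in shGPD1L their medians are 0.07 and -0.21.

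The genes whose values ran closest to the mean of the 9 members over the 12 libraries, each measured as log2(FPKM + 1) less its control mean, were sought among 11199 genes tested in both tables. Among the 5 nearest were AACS (root mean square difference 0.0333), TRIM65 (0.0382), PDIA6 (0.0450) and MINPP1 (0.0471). All 9 members lay farther from their own mean than these genes did, from 0.0656 for TAP1 to 0.287 for PSMB9. Nearness to the mean is therefore not nearness to any 1 class I gene. AACS encodes acetoacetyl-CoA synthetase, PDIA6 a protein disulfide isomerase and MINPP1 an inositol phosphate phosphatase. On average AACS was 0.26 lower in OE than in Vector and 0.04 higher in shGPD1L than in shNC.

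Values that moved with the groups are given here for the cell type markers. Summed epithelial markers were at 4137 to 4267 FPKM in OE against 3775 to 3883 FPKM in Vector, and at 4203 to 4482 FPKM in shGPD1L against 5065 to 5427 FPKM in shNC. The sum is mostly keratins: in OE 3 of 7 tested markers rose, KRT8 (0.15), KRT18 (0.21) and KRT19 (0.30), and the other 4 fell, among them VIL1 (-0.52) and CDX2 (-0.59). Of all genes 12.2% rose and 10.3% fell in OE. In the knockdown 0 of 7 were called, with 4 at an unadjusted p under 0.05, and without shGPD1L replicate 3 KRT19 (-0.34) and VIL1 (-0.55) were called lower. Summed leukocyte markers were at 18.4 to 19.5 FPKM in OE and 17.3 to 19.7 FPKM in Vector, so they overlapped, CD68 making up most of the sum. CD14, a monocyte marker, was at 1.04, 0.762 and 0.629 FPKM in OE against 1.71, 2.07 and 1.64 FPKM in Vector and fell (-0.64, adjusted p = 0.00803). In the knockdown they were at 20.0 to 28.7 FPKM in shGPD1L and 27.8 to 32.0 FPKM in shNC, with 0 of 2 called, and CD68 was called lower without shGPD1L replicate 3 (-0.55, adjusted p = 0.0215). The 2 fibroblast markers with values summed to 1.19 to 1.37 FPKM in OE against 2.06 to 2.31 FPKM in Vector, and to 1.29 to 1.63 FPKM in shGPD1L against 1.15 to 1.55 FPKM in shNC. In the overexpression 1 of them passed the filter and was called lower (-0.41), and in the knockdown 0 passed it. The part of any of these in the class I changes was not tested.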

How the data were processed

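The authors deposited 2 tables of FPKM, 1 for each comparison, from poly(A) RNA of 12 libraries; library titles gave the groups. The submitters' processing notes name HISAT2, StringTie, DESeq2 and GRCh38, giving neither version nor role. The annotation release is not given in the sources used here. Per the labels' protocols, complementary DNA was primed with random hexamers, and strandedness is not stated. Low FPKM values showed no common step, with the most frequent ratio between libraries at 0.460% and 0.436% of the low genes compared, so reads were not recovered, depth is unknown and errors are between libraries. DESeq2 was not run here, because FPKM are not counts. The genotype labels count the gene name up with the replicate (GPD1L, GPD2L, GPD3L), taken here for a numbering slip.

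Values were transformed to log2(FPKM + 1), which understates changes of low genes. Genes averaging 1 FPKM or more in a table were tested with limma 3.58.1 under R 4.3.3, using an intensity trend; p-values were adjusted over all genes by Benjamini-Hochberg. All 9 members passed this filter. The difference of effects was fitted over 12 libraries, matching genes by identifier. Ratios were tested with an exact permutation test (scipy 1.17.1, Python 3.11.15). Figures were drawn with matplotlib 3.10.9. The fits were tested on simulated data. Of 100 genes changed by 0.5 on the log2 scale, 42 were recovered in the knockdown and 74 in the overexpression. At a change of 1 it was 92 and 95 of 100, and each simulation held 6 false calls. Small changes could thus be missed, more so in the knockdown. Changes below 0.5 were not simulated, and every member's change but that of PSMB9 in OE was smaller than this. Recovery at those sizes is therefore unknown. Identifiers, coordinates and overlaps come from GENCODE 29 on GRCh38, and promoters from RefSeq on GRCh38.p14.

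The members and gene lists were chosen with earlier results of these data known. Besides the members, the text names called genes of each list, at most the 3 with the largest change in each direction per comparison of a line with its control, and NLRC5, IRF1, PSMB10, PSMB5, PSMB6, PSMB7, CALR, PDIA3, ERAP1, GPD1L and the genes nearest in pattern. Some genes falling under this rule are not reported here. Genes called without shGPD1L replicate 3, ULBP1 and the markers are named besides, chosen after their values were seen. Alternatives were pseudocounts of 0.1 and 0.5, no filter or 5 FPKM, quantile normalization, median-of-ratios scaling, equal library totals, robust or trend-free eBayes, a replicate block and leaving out each library.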

Additional observations from a re-analysis of the deposited data

Results flagged for a closer look

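The changes in OE and in shGPD1L differed for 2 of the 9 class I genes by a test of the difference itself (limma over 12 libraries, change in OE less change in shGPD1L, adjusted over 11385 genes). Of all these genes 4.97% were called lower and 9.09% higher. HLA-B differed by -0.51 (-0.35 in OE, 0.15 in shGPD1L, adjusted p = 0.00235), and HLA-C by -0.36 (-0.29 in OE, 0.07 in shGPD1L, adjusted p = 0.0241). Among the other chains the difference was -0.46 for HLA-F (adjusted p = 0.0261), -1.29 for AZGP1 (adjusted p = 0.00403), -0.50 for ULBP3 (adjusted p = 0.0289) and 0.49 for ULBP1 (adjusted p = 0.0321), with 4 of 14 called lower and 1 higher. Among loading partners it was -0.60 for CALR (adjusted p = 0.000910), -0.32 for PDIA3 (adjusted p = 0.0212, called in 15 of 22 alternatives), -0.50 for GANAB (adjusted p = 0.00137) and -0.70 for PRKCSH (adjusted p = 0.00488). PSME1 differed by -0.55 (adjusted p = 0.00802) and THOP1 by 0.57 (adjusted p = 0.0212). Of the interferon-stimulated genes named, IFITM1 differed by -0.66 (adjusted p = 0.00349), while IFI35 at 0.44 (adjusted p = 0.0299) and CXCL10 at 0.43 (adjusted p = 0.0360) were lower in shGPD1L than in OE, each relative to its control. EZH2 differed by 0.35 (adjusted p = 0.0459) and SYVN1 by -0.45 (adjusted p = 0.00898). Of the epithelial markers named, KRT8 differed by 0.41 (adjusted p = 0.0182), KRT18 by 0.48 (adjusted p = 0.0178), KRT19 by 0.55 (adjusted p = 0.00850) and CDX2 by -0.53 (adjusted p = 0.0229). GPD1L itself, the gene manipulated, differed by 2.86 (adjusted p = 2.31e-06).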

How the results depend on the processing

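In the overexpression 4 to 7 members were called over the 16 alternatives, all lower, and HLA-B, HLA-C, PSMB8 and PSMB9 were called in 16 of 16. TAP1 was also called with a filter at 5 FPKM, median-of-ratios scaling and quantile normalization, and HLA-E with median-of-ratios scaling (adjusted p = 0.0400). In the knockdown 0 members were called in 16 of 16. GPD1L itself was called there in 13 of 16, its call being lost without shNC replicate 1, 2 or 3. Leaving out single libraries gave 4 to 5 members in the overexpression and 1 to 5 in the difference of effects, and 1540 to 1982, 0 to 608 and 796 to 2593 genes in the overexpression, the knockdown and the difference. Quantile normalization gave 25 genes in the knockdown and 1 member in the difference, against 72 and 2 as reported. The replicate numbers did not pair the libraries (correlations of same-numbered libraries between -0.18 and 0.0222); with the replicate block 3 genes were called in the knockdown, 474 in the difference against 1601, 1 member in the difference and 4 members in the overexpression, TAPBP being lost (adjusted p = 0.0576).

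Changes near 0 turned sign. With equal library totals TAP2 was at 0.0261 in the overexpression, and the TAP2 difference was -0.0147 with median-of-ratios scaling and -0.0109 with quantile normalization. Over the fits that left out 1 library, the knockdown change ran from -0.0731 to 0.218 for B2M, -0.0577 to 0.151 for ERAP1, -0.0691 to 0.0934 for IRF1, -0.590 to 0.00702 for PSMB10, -0.125 to 0.178 for PSMB6, -0.172 to 0.0685 for PSMB7, -0.296 to 0.0817 for PSMB8, -0.217 to 0.238 for PSMB9 and -0.169 to 0.0730 for TAP2. Differences of effects ran from -0.439 to 0.158 for PSMB10, -0.339 to 0.0388 for PSMB8 and -0.0910 to 0.151 for TAP2. Knockdown log2 ratios ran from -0.0987 to 0.232 for HLA-B over B2M, -0.349 to 0.00154 for PSMB8 over PSMB5 and -0.146 to 0.110 for PSMB9 over PSMB6. The cause of these changes of sign was not tested. Depth is unknown, so counting error could not be given.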
